A study of Mus musculus with 20 samples.

Results

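Macrophages of the mouse colon were compared between intestinal tumors and naive colon. The comparison takes in all 11 macrophage samples of the 20 samples in the series, 5 from naive colons and 6 from within tumors, and every row of their expression table, 50600 gene entries. All mice were C57BL/6. The naive group were wild-type animals with the disease state given as control, and the tumor group carried tumors after induction of CAC, an abbreviation commonly used for colitis-associated cancer. Both groups had the colon digested with enzymes and the macrophages isolated by flow cytometry. The labels used here name neither the inducing agents, nor how many animals were used or how old they were, nor the gate of the sort. Because tumors were compared with the colons of naive mice, the tumor and the inducing treatment cannot be told apart.

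Macrophages of the healthy colon are a large resident population that is refilled from blood monocytes and settles into a tolerant state: the cells take up bacteria and dying cells through scavenger receptors and lectins, present antigen on MHC class II, and produce interleukin-10. Macrophages in tumors derive largely from newly arrived monocytes, and are known as a source of angiogenic factors, of matrix-degrading enzymes and of enzymes that consume arginine. Low oxygen acts on them through the transcription factor HIF-1, which raises glucose transport, glycolysis and vascular endothelial growth factor.

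RNA was measured by CEL-Seq, which counts the 3′ ends of polyadenylated transcripts. The deposited values are reads scaled for the depth of each library and are called normalised reads here. Depth ran from 1477255 reads in naive library 5 to 7945096 in naive library 2, so values near 0 are coarsest in naive library 5. In total 11520 genes reached 10 normalised reads in at least 5 libraries and were tested with limma on log2(value + 1). A difference given below on the log2 scale is tumor minus naive with its standard error, over 5 and 6 libraries, and the p beside it is adjusted by Benjamini and Hochberg over the 11520 genes. A gene is called where that p is under 0.05. The gene lists used below were chosen with earlier results of these data known. Counts and sums over a list therefore describe it and are not independent support. The pseudocount of 1 understates the change of genes with few reads. The labels name separate samples but not separate animals, and they mention 3 technical replicates per sample, so the p-values measure the spread between these samples.

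Of the tested genes, 979 were called higher and 989 lower in tumor macrophages, which is 8.5% and 8.59% of those tested and 17.1% together. Among the called genes 540 were at least 2-fold higher and 541 at least 2-fold lower, and 79 and 50 passed 8-fold. The median log2 difference over all genes was 0.03. Scaling to the library total without immunoglobulin, mitochondrial and haemoglobin transcripts moved that median to 0.16 and the calls to 1465 higher and 718 lower, 67.1% higher against 49.7% with the deposited scaling. All 1954 called genes that were tested under that scaling kept their direction. The first principal component held 42.4% of the variance and separated the groups. The 12 named genes with the smallest p among those lower were Cd163, Gfra2, Emp1, Fgfr1, Stard8, Lyve1, Slco2b1, Crip1, Arhgap6, Tppp3, Gbp2b and Cd209a. Those among the higher were Vegfa, Spp1, Pla2g2a, Cxcl5, Cd38, Hp, Tgm2, Ass1, Krt14, Krt5, Spock2 and Lrg1.

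**Figure D1:**
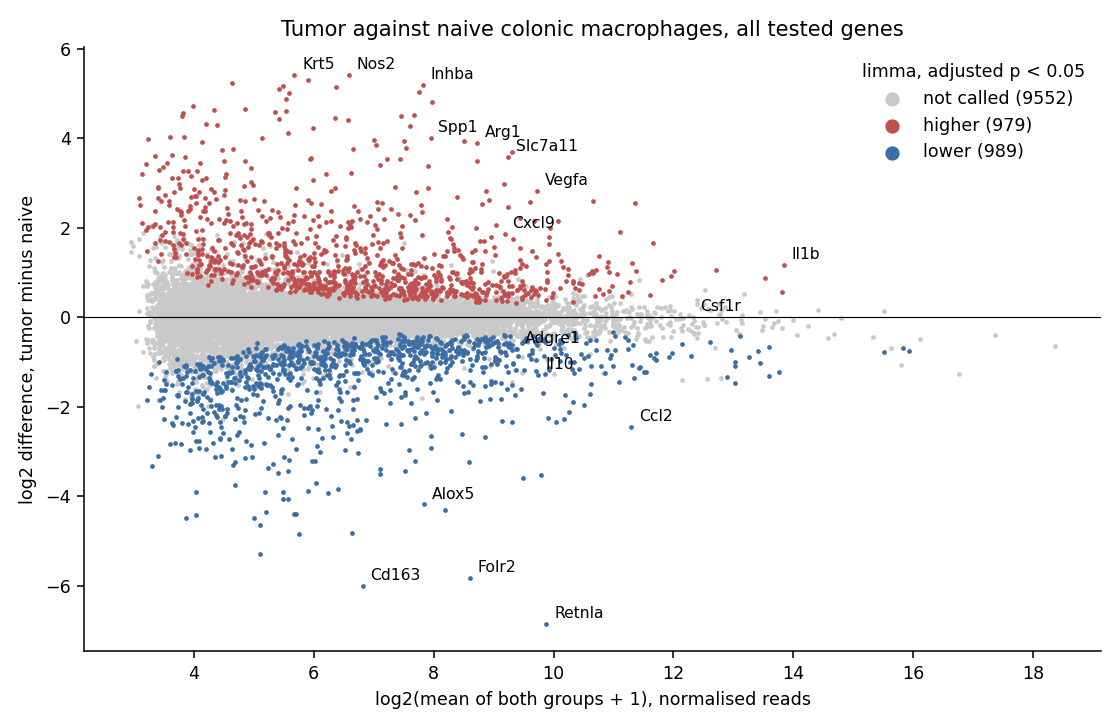
Each point is 1 of the 11520 tested genes, with its level on the horizontal axis (log2 of the mean of both groups plus 1, in normalised reads) and the log2 difference, tumor minus naive, on the vertical axis. Red points are the 979 genes called higher and blue points the 989 called lower; Csf1r lies at 0.00, Cd163 at -6.01 and Vegfa at 2.82.

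The tumor libraries resembled each other in pairs. Over 4363 genes with a mean of at least 100, the deviations from the group mean correlated at 0.557 between tumor libraries 1 and 2, 0.61 between 3 and 4 and 0.26 between 5 and 6, as a description over genes. Naive libraries 2 and 4 correlated at 0.435. The labels name all of them as separate samples, and they were counted so. Each pair differed by more than read-counting noise, with a median chi-square 4.78 to 10.6 times that expected, but 2 libraries of 1 animal could differ as much. The labels do not say whether paired libraries share an animal; if they do, the p-values are too small. With tumor libraries 1, 3 and 5 left out, 480 genes were called higher and 568 lower; with 2, 4 and 6 left out, 471 and 628. Among the genes given with values, Adgre1, Trem2, Nfe2l2, Casp4, Slc2a3, Ciita, Cst3, Tlr7 and Lgr5 lost their call in the first case, Cd14, Ptgs1, Ang, Areg, Gsdmd, Lif, Ccl5, Isg15, Nr4a2 and Nr4a3 in the second, and Gpnmb, Gpx1, Tnf, Cd274, H2-Aa, H2-Eb1, Ctss and Mcm4 in both.

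Macrophage markers were present in every library and did not pass a test as a group. Csf1r, the receptor for the growth factor on which macrophages depend, read 4545, 5844, 4714, 6205 and 4276 in naive libraries 1 to 5 and 3829, 5210 and 5811 at the lowest, median and highest of the 6 tumor libraries, a log2 difference of 0.004 ± 0.15 (adjusted p = 0.99). The complement gene C1qa read 5054, 3838, 5348, 4355 and 3545 in the naive libraries and 3791, 4146 and 5176 in the tumor libraries in the same order, a difference of -0.03 ± 0.14 (adjusted p = 0.91). The groups overlapped for both genes. Adgre1, which encodes the surface marker F4/80, was called lower (-0.71 ± 0.17, adjusted p = 0.0078), at 695, 997, 910, 960 and 619 in naive and 381, 501 and 680 in tumor libraries; without tumor libraries 1, 3 and 5 it was no longer called. Of 15 identity genes, 1 was called higher, the lipopolysaccharide co-receptor Cd14 (1.03 ± 0.24, adjusted p = 0.0084), and 2 lower, Adgre1 and the transcription factor Maf (-1.50 ± 0.29, adjusted p = 0.002), with a median of 0.00. Leaving out naive library 4 or tumor library 2 gave 2 higher. Over all tested genes 8.5% were called higher and 8.59% lower. The summed identity list made up 15790 ± 1690 ppm of all normalised reads (SD, n = 5) of naive and 17923 ± 1600 ppm (n = 6) of tumor libraries (exact permutation test, adjusted p = 0.084 over 12 marker lists). In sorted bulk RNA, fewer cells of a type and less RNA per cell cannot be told apart.

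Markers of other cells were present and some moved with the groups. Summed neutrophil markers were 44.7 to 68.3 ppm in naive and 109 to 685 ppm in tumor libraries (adjusted p = 0.035 by the exact permutation test, as for the sums that follow), with tumor libraries 1 and 2 highest at 685 and 575 ppm. Mast cell markers went from 12.3 to 26.4 ppm in naive to 36.7 to 431 ppm in tumor libraries (adjusted p = 0.035). In tumor libraries 3 and 4 the member Hdc read 87.8 and 95 normalised reads, against 4.7 to 32.1 in naive libraries. The proteases Mcpt2, at 0.48 and 23.3, and Mcpt1, at 9.54 and 3.59, did not both rise there. They read 0.94 to 7.13 and 0 to 18 in naive libraries. Stromal and endothelial markers were lower, 654 to 3047 against 310 to 725 ppm (adjusted p = 0.017), as were haemoglobin and other erythrocyte markers, 274 to 4832 against 127 to 524 ppm (adjusted p = 0.032), both highest in naive library 5. Epithelial markers were at 592 to 3956 ppm in naive and 1381 to 2372 ppm in tumor libraries (adjusted p = 0.68), and B and plasma cell markers, mostly immunoglobulin, at 18462 to 76530 and 9454 to 73332 ppm (adjusted p = 0.21). Monocyte markers were at 1748 to 2356 and 1290 to 1972 ppm (adjusted p = 0.081), eosinophil markers at 27.4 to 71.7 and 8.26 to 38.5 ppm (adjusted p = 0.067), and dendritic cell markers at 229 to 626 and 250 to 553 ppm (adjusted p = 0.24). The T and NK cell sum fell from 509 ± 53.5 to 175 ± 49.4 ppm (adjusted p = 0.013), but most of it was Cd4, which macrophages also express. Cd4 read 1723.9 to 2488.5 in naive and 252.94 to 726.11 in tumor libraries (-2.12 ± 0.23, limma, adjusted p = 1.7e-05). The next highest member, Trbc2, read at most 163.89 and was not called. Cd4 was the only call among 7 tested members, 14.3% against 17.1% of all tested genes. Of these members 4 had positive differences, with a median of 0.20, so the list did not fall as a group. The eosinophil granule gene Epx read 0 in 10 of the 11 libraries, but other members of its list had reads. Prg2 read 39.2 to 137 in naive and 3.59 to 112 in tumor libraries and was not called (limma, adjusted p = 0.31). Ear2 read 21.2 to 149 and 1.79 to 12 and was called lower (-3.36 ± 0.50, adjusted p = 0.00025). With fewer libraries the permutation test reaches less: without any 1 naive library the neutrophil and mast cell sums no longer passed, and the erythrocyte sum did not without naive library 3, 4 or 5 or tumor library 3, 4, 5 or 6. Mitochondrially encoded transcripts made up 11.4 ± 3.18% of naive and 9.52 ± 0.807% of tumor libraries (exact permutation p = 0.22). The part of these cells in the results below was not tested.

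**Figure D2:**
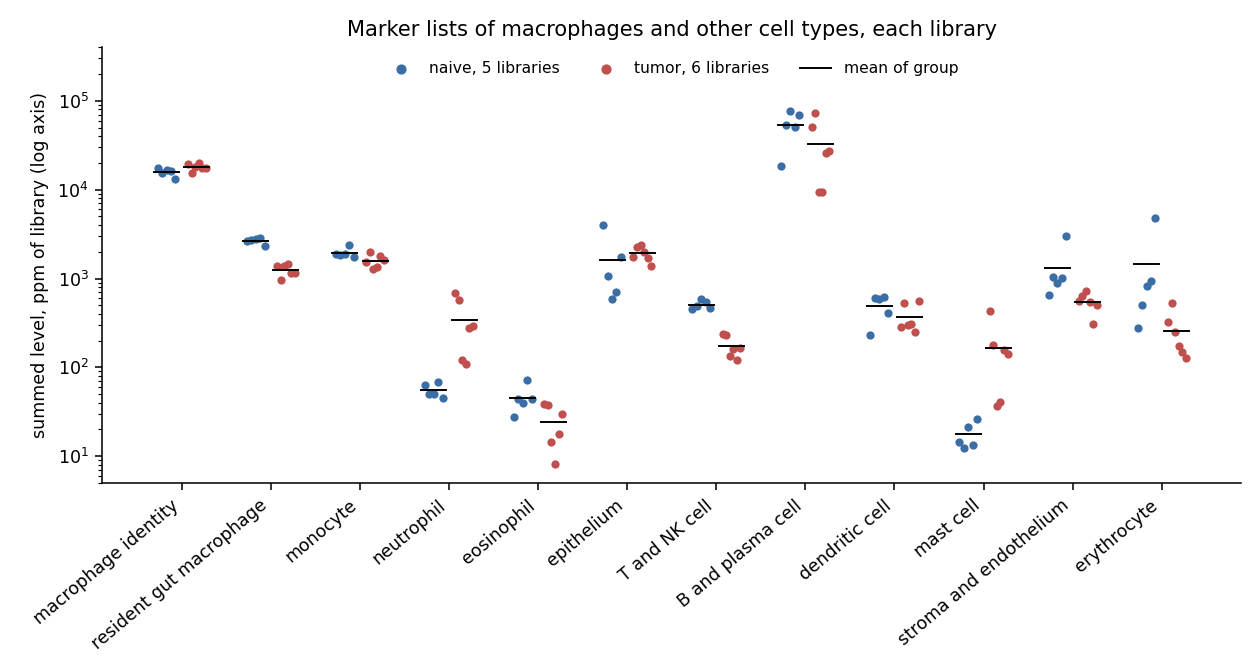
Each point is 1 library, blue for the 5 naive and red for the 6 tumor libraries, and gives the summed level of 1 marker list in ppm of the library on a log axis; black lines are group means. The resident gut macrophage list falls without overlap, and the neutrophil and mast cell lists sit above every naive library in all 6 tumor libraries.

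The resident gut macrophage genes were lower in tumor macrophages almost throughout. Of 17 tested members, 16 were called lower and 0 higher, against 8.59% of all tested genes called lower, and in 13 every tumor library lay below every naive one, which held for 5.47% of all tested genes. Their median log2 difference was -1.46. Summed, the list fell from 2671 ± 216 to 1247 ± 193 ppm (exact permutation test, adjusted p = 0.013). This list, like the others, was chosen with earlier results of these data known, so these counts and this p only describe it. The member not called was Hes1, a Notch target, at 272 to 442 in naive and 264 to 750 in tumor libraries, and Vsig4 had too few reads to be tested.

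Scavenger receptors and lectins of this set fell strongly. Cd163, the haemoglobin scavenger receptor (GRCm38 chr6:124304656-124330527, plus strand), read 193, 208, 178, 345 and 179 in naive libraries 1 to 5 and 1.75, 2.23 and 3.59 at the lowest, median and highest of the tumor libraries, a difference of -6.01 ± 0.25 (adjusted p = 2.2e-09). The tumor values are close to the level of single reads. Folr2, a folate receptor of resident macrophages, read 742, 617, 1179, 400 and 844 in naive and 0.95, 14.2 and 73.4 in tumor libraries and fell by 5.82 ± 0.68 (adjusted p = 3e-05), with tumor library 1 the highest of its group. Lyve1, a hyaluronan receptor of perivascular macrophages (chr7:110850607-110863239, minus strand), read 580, 435, 579, 471 and 704 and 10.7, 36.4 and 43.7 and fell by 4.31 ± 0.32 (adjusted p = 9.2e-07). The lectins Cd209f and Cd209g were at 66, 33.4, 92.6, 37.1 and 100 and at 32.1, 19.8, 38.6, 11.5 and 33.4 in naive libraries, and both read 0 in at least 3 of the 6 tumor libraries, with differences of -5.28 ± 0.49 (adjusted p = 4.6e-06) and -4.49 ± 0.52 (adjusted p = 2.7e-05). Reads can be shared between the near-identical Cd209 genes, so the split between them is uncertain. None of these 5 genes overlapped between the groups.

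Members that mark longer residence or tolerance fell as well. Timd4, a phosphatidylserine receptor that marks long-lived resident macrophages, read 19.6, 44.7, 63, 64.8 and 30.4 in naive and 2.39, 9.19 and 18 in tumor libraries (-2.23 ± 0.48, adjusted p = 0.0049). The fractalkine receptor Cx3cr1 fell by 0.87 ± 0.14 (adjusted p = 0.00069), from 2181, 1660, 2160, 1878 and 1906 to 844, 1020 and 1414, with no overlap. Mrc1, the mannose receptor, fell by 1.17 ± 0.23 (adjusted p = 0.0028), as did Gas6, a bridge between dying cells and their receptors (-1.46 ± 0.23, adjusted p = 0.00052). Interleukin-10 itself, Il10, read 1159, 1169, 1319, 1549 and 829 in naive and 322, 515 and 725 in tumor libraries, a difference of -1.28 ± 0.21 (adjusted p = 0.00055). Of 13 genes for sensing interleukin-10, TGF-beta and aryl hydrocarbons, 3 fell: Acvrl1, a receptor for bone morphogenetic proteins (-1.38 ± 0.13, adjusted p = 4.7e-06), the aryl hydrocarbon receptor Ahr (-0.67 ± 0.13, adjusted p = 0.0027) and its repressor and target Ahrr (-2.96 ± 0.29, adjusted p = 6.6e-06). In the same list 1 rose, the transcription factor Nfil3 (1.142 ± 0.15, adjusted p = 0.0001), against 8.59% of all tested genes called lower and 8.5% higher. The repressor read 218, 211, 148, 119 and 112 in naive and 9.41, 18.5 and 31.8 in tumor libraries.

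**Figure D3:**
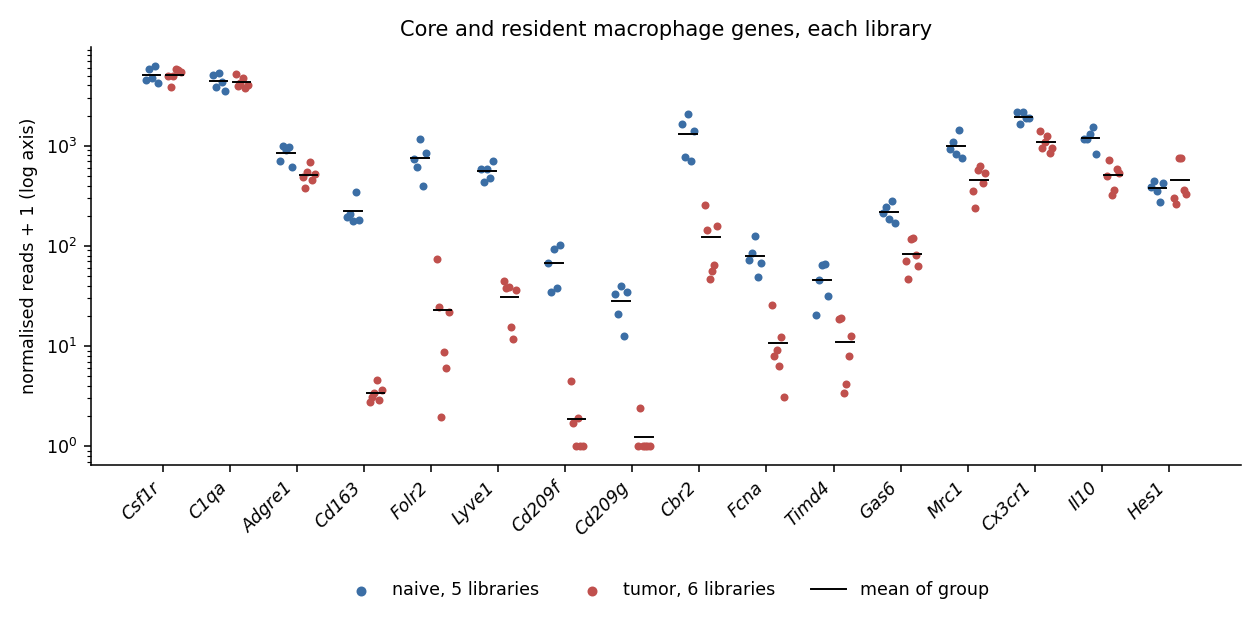
Each point is 1 library, blue for naive and red for tumor, at its normalised reads plus 1 on a log axis, and black lines are the means of the groups. Csf1r and C1qa overlap, Hes1 overlaps, and the genes from Cd163 to Il10 lie lower in every tumor library.

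Other cell surface and lipid mediator genes fell alongside. The glial-factor receptor Gfra2 read 119, 98.3, 124, 106 and 109 in naive and 5.02, 6.61 and 8.59 in tumor libraries (-3.87 ± 0.21, adjusted p = 5.2e-08), and the fibroblast growth factor receptor Fgfr1 94.5, 132, 93.9, 116 and 146 and 8.74, 10.6 and 18.8 (-3.20 ± 0.22, adjusted p = 4.4e-07). Neither gene overlapped. Retnla, a secreted protein induced by interleukin-4 and interleukin-13, read 2332, 1173, 1246, 3467 and 1074 in naive and 3.34, 8.97 and 111 in tumor libraries, a difference of -6.85 ± 0.65 (adjusted p = 4.8e-06). It belongs to the alternative activation list, of which 4 of 15 fell (Retnla, Mgl2, Mrc1 and Irf4) and 4 rose (Tgm2, Clec7a, Arg1 and Pdcd1lg2), with a median of 0.36. Of 13 C-type lectins 7 were lower and 5 higher. For both lists the shares over all tested genes were 8.59% lower and 8.5% higher. The C-type lectins called higher were Clec5a and the fungal and mycobacterial pattern receptors Clec4d (2.57 ± 0.25, adjusted p = 6.6e-06), Clec4e (2.54 ± 0.32, adjusted p = 5.9e-05), Clec7a (1.66 ± 0.21, adjusted p = 5.4e-05) and Clec4n.

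Of 13 prostaglandin and leukotriene enzymes, 7 were lower and 1 higher, against 8.59% and 8.5% of all tested genes, with a median of -0.58. Alox5, which starts leukotriene synthesis, read 585, 293, 544, 300 and 404 in naive and 6.68, 26.6 and 69.9 in tumor libraries and fell by 4.18 ± 0.47 (adjusted p = 2.4e-05). Ltc4s, which forms leukotriene C4, fell by 1.87 ± 0.36 (adjusted p = 0.0022), as did Hpgd, which degrades prostaglandins (-2.33 ± 0.27, adjusted p = 2.5e-05). Ptgs2, the inducible cyclooxygenase, rose from 255, 463, 259, 686 and 258 to 638, 1356 and 2897, a difference of 2.003 ± 0.35 (adjusted p = 0.00093), whereas the constitutive Ptgs1 fell by 0.80 ± 0.17 (adjusted p = 0.0046). Naive library 4 is the highest of its group for Ptgs2 and overlaps the tumor range. Without naive library 5 or tumor library 3, 2 enzymes were called higher.

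Vegfa was the gene with the smallest p among those higher. It encodes the main angiogenic growth factor (chr17:46016993-46032369, minus strand) and read 230, 175, 161, 244 and 231 in naive libraries and 1100, 1482 and 1958 in tumor libraries, a difference of 2.82 ± 0.16 (adjusted p = 5.7e-08). Every tumor library was above every naive one by more than 4-fold. The angiogenesis list holds regulators that act in either direction and receptors. Of its 11 tested members 4 rose, Vegfa, Thbs1, Angpt2 and Nrp2. Another 2 fell, the coreceptor Nrp1 (-0.97 ± 0.19, adjusted p = 0.0024) and angiogenin, Ang (-0.90 ± 0.23, adjusted p = 0.014). Over all tested genes 8.5% were called higher and 8.59% lower. Angpt2, a destabiliser of vessels, rose by 1.74 ± 0.31 (adjusted p = 0.0011) from 5.35, 7.05, 3.86, 3.14 and 9.11 to 17.8, 20.9 and 22.7.

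Genes known from tumor macrophages rose as well, in a list that holds Vegfa itself. The list shares further genes with others given here, so their counts are not independent. Vegfa, Bnip3 and Ero1l are also glycolysis and HIF-1 members, Vegfa and Thbs1 members of the angiogenesis list, and Arg1 an arginine enzyme. Of 18 such genes tested, 14 were called higher and 0 lower, against 8.5% of all tested genes, with a median of 1.45; in 12 of them every tumor library was above every naive one, which held for 5.19% of all tested genes. Spp1, osteopontin (chr5:104435118-104441050, plus strand), read 35.7, 27.8, 18, 37.7 and 21.2 in naive and 319, 453 and 707 in tumor libraries, a difference of 4.004 ± 0.23 (adjusted p = 5.7e-08). Inhba, the subunit of activin A, read 10.7, 8.47, 2.57, 17.8 and 9.11 and 142, 317 and 1031 and rose by 5.19 ± 0.49 (adjusted p = 4.8e-06), with tumor library 5 highest. Fabp5, a fatty acid carrier, rose by 2.01 ± 0.17 (adjusted p = 2.5e-06) and Trem1, an amplifier of inflammatory signalling, by 2.82 ± 0.28 (adjusted p = 6.6e-06); Trem2 and Gpnmb, which mark lipid-laden macrophages, rose less, by 0.80 ± 0.17 (adjusted p = 0.0044) and 1.08 ± 0.25 (adjusted p = 0.0075). Of 18 growth factors and receptors, 4 rose, among them the hepatocyte growth factor receptor Met (1.74 ± 0.28, adjusted p = 0.00048) and amphiregulin, Areg (1.66 ± 0.41, adjusted p = 0.011), and Bmp2 fell (-1.57 ± 0.24, adjusted p = 0.00031); without tumor library 1, 2 were called lower.

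Glycolysis and HIF-1 target genes were higher in tumor macrophages. Of 27 tested members 19 rose and 1 fell, against 8.5% and 8.59% of all tested genes, with a median of 0.90. In 16 every tumor library was above every naive one, against 5.19% of all. Hif1a itself read 287, 372, 351, 354 and 382 in naive and 865, 1009 and 1269 in tumor libraries, a difference of 1.56 ± 0.13 (adjusted p = 2.1e-06). The glucose transporter Slc2a1 read 62.4, 98.3, 43.8, 94.1 and 36.4 and 177, 308 and 521 (2.28 ± 0.29, adjusted p = 7.1e-05), and the lactate exporter Slc16a3 319, 186, 203, 307 and 185 and 667, 1213 and 1684 (2.22 ± 0.25, adjusted p = 2.3e-05). Egln3, an oxygen-dependent hydroxylase that HIF-1 induces, rose by 2.50 ± 0.24 (adjusted p = 5.9e-06), and Bnip3, a mitophagy receptor, by 1.69 ± 0.16 (adjusted p = 5.4e-06). Enzymes of the pathway rose as well, Pgk1 by 1.13 ± 0.14 (adjusted p = 6.3e-05), Aldoa by 1.02 ± 0.13 (adjusted p = 4.9e-05), Pkm by 1.06 ± 0.19 (adjusted p = 0.0012) and Ldha by 0.73 ± 0.12 (adjusted p = 0.00056). Slc2a3, a second glucose transporter, was called lower (-1.26 ± 0.36, adjusted p = 0.025), a call not made in edgeR's quasi-likelihood test or without naive library 3 or 5 or tumor library 3 or 5. Adm (0.67 ± 0.39) and Pdk1 (-0.29 ± 0.19), also HIF-1 targets, were not called (adjusted p = 0.28 and 0.34). Of 35 nuclear-encoded respiratory chain genes, 2 were higher and 0 lower, with a median of 0.11; without tumor library 1, 4 were higher, and 7 when scaled without immunoglobulin, mitochondrial and haemoglobin transcripts. Of 13 mitochondrially encoded transcripts limma called 0, with 3 lower without naive library 2 and 1 without tumor library 1, while DESeq2 called 5 lower and edgeR's quasi-likelihood test 1.

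Promoters of 3 of these genes are shown because they hold the core of the hypoxia response element, ACGTG, to which HIF-1 binds. The sequences are from RefSeq on build GRCm38.p6, cut from the 250 bases before the gene's most 5′ start, written 5′ to 3′ on the gene's strand, with each match on either strand in capitals.
Slc2a1, chr4:119108669-119108744, plus strand: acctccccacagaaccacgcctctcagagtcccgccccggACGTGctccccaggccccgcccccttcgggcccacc
Slc16a3, chr11:120949013-120949066, plus strand: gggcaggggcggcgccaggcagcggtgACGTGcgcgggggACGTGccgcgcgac
Egln3, chr12:54204059-54204124, minus strand: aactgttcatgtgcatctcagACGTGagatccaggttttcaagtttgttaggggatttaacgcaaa
The core was found in 11 of the 24 list members with a promoter entry and in 10 of the 17 called ones, in 16.5% of all 27025 genes with an entry and in 22.1% of the tested ones. Over the other lists searched it was found in 8 of 22 immediate-early members, 3 of 17 antioxidant, 2 of 16 interferon-gamma, 1 of 18 type I interferon, 1 of 9 class II and 0 of 14 resident gut macrophage members. The window of Vegfa's most 5′ start held none. A match is a description of the letters and not a binding site. In all, 14 patterns were searched in 7 gene lists, and those given were picked with the counts in view. The others were a wider hypoxia core that also allows GCGTG, the CCAAT box, the AP-1 site in either central base (TGACTCA for one form), loose and consensus kappa-B sites, the CLEAR element, the MAF recognition core TGCTGAC, the cyclic AMP response element TGACGTCA, the antioxidant response element core and the serum response element.

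Genes for using, forming and importing arginine rose. Nos2, the inducible nitric oxide synthase (chr11:78920787-78960254, plus strand), read 1.78, 2.35, 1.29, 3.14 and 3.04 in naive and 55.1, 122 and 525 in tumor libraries, a difference of 5.42 ± 0.47 (adjusted p = 2.5e-06). Arg1, the cytosolic arginase, read 42.8, 15.5, 16.7, 397 and 33.4 and 333, 799 and 1180, a difference of 3.89 ± 0.66 (adjusted p = 0.00075); naive library 4, at 397, lies inside the tumor range. The mitochondrial arginase Arg2 rose by 4.44 ± 0.35 (adjusted p = 9.2e-07), the arginine-forming Ass1 by 2.98 ± 0.23 (adjusted p = 9.2e-07) and the arginine transporter Slc7a2 by 3.37 ± 0.43 (adjusted p = 6.3e-05). These 5 of 12 tested members were the only ones called in the list, whose median was 0.38, against 8.5% of all tested genes called higher. Nos2 and Arg1 were both highest in tumor library 5.

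Antioxidant, iron and heme genes were 12 higher and 1 lower of 21, against 8.5% and 8.59% of all tested genes, with a median of 0.62. The cystine transporter Slc7a11 read 55.3, 87, 63, 139 and 75.9 in naive and 572, 757 and 2334 in tumor libraries and rose by 3.58 ± 0.35 (adjusted p = 6.7e-06). Glutathione reductase, Gsr, rose by 2.17 ± 0.22 (adjusted p = 6.9e-06), thioredoxin reductase, Txnrd1, by 1.42 ± 0.20 (adjusted p = 0.0002), ferritin heavy chain, Fth1, by 0.88 ± 0.14 (adjusted p = 0.00055) and Nfe2l2, the transcription factor NRF2, by 0.77 ± 0.18 (adjusted p = 0.008). The heme oxygenase gene Hmox1 (0.40 ± 0.24, adjusted p = 0.28) and the iron exporter gene Slc40a1 (-0.06 ± 0.34, adjusted p = 0.93) were not called. Gpx1 was the member called lower (-0.59 ± 0.19, adjusted p = 0.046); 7 of the 11 leave-outs of a single library, those of naive 1, 3 or 5 and tumor 3, 4, 5 or 6, and both other scalings ended that call.

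**Figure D4:**
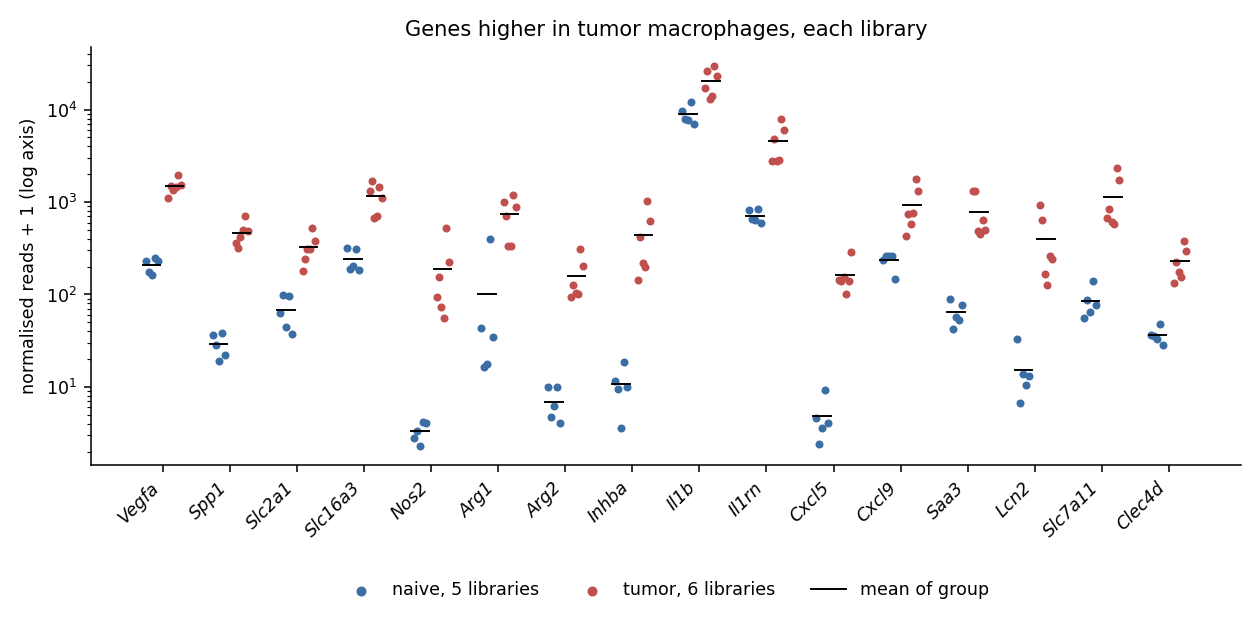
Each point is 1 library, blue for naive and red for tumor, at its normalised reads plus 1 on a log axis, and black lines are group means. For every gene shown except Arg1 all tumor libraries lie above all naive ones; naive library 4 reads 397 for Arg1.

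The interleukin-1 genes were raised on both sides of the pathway. Il1b, the inflammatory cytokine, read 9718, 7852, 7720, 12036 and 7005 in naive and 12998, 20253 and 29327 in tumor libraries, a difference of 1.17 ± 0.23 (adjusted p = 0.0023), with tumor library 3 lowest of its group. Il1a rose by 1.90 ± 0.31 (adjusted p = 0.00055). The receptor antagonist Il1rn rose by 2.56 ± 0.26 (adjusted p = 8.3e-06), from 829, 648, 630, 842 and 598 to 2799, 3805 and 7913, and the interleukin-18 binding protein Il18bp, a decoy, by 2.38 ± 0.23 (adjusted p = 5.4e-06). The pore-forming Gsdmd rose by 0.56 ± 0.13 (adjusted p = 0.0064), and the inflammatory caspase Casp4 fell by 0.72 ± 0.14 (adjusted p = 0.0026). The inflammasome sensor Nlrp3 (0.35 ± 0.20, adjusted p = 0.27) and Il18 (-0.36 ± 0.20, adjusted p = 0.24) were not called. In all 5 of 15 members were higher and 1 lower, against 8.5% and 8.59% of all tested genes.

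Among 12 other cytokines tested, 5 were higher and 2 lower, against 8.5% and 8.59% of all tested genes. Oncostatin M, Osm, read 123, 148, 111, 150 and 91 in naive and 290, 489 and 632 in tumor libraries (1.90 ± 0.20, adjusted p = 1.5e-05). Il23a, the specific chain of interleukin-23, rose by 2.88 ± 0.49 (adjusted p = 0.00082), the granulocyte growth factor Csf3 by 3.26 ± 0.51 (adjusted p = 0.00041) and Lif by 1.75 ± 0.44 (adjusted p = 0.012). Tnf read 717, 640, 685, 553 and 455 in naive and 645, 845 and 1308 in tumor libraries, a difference of 0.55 ± 0.17 (adjusted p = 0.039); that call was lost on leaving out naive library 2, 4 or 5 or any of tumor libraries 2 to 6. Il6 was not called, at 9.01 to 83.2 in naive and 30.9 to 163 in tumor libraries (1.47 ± 0.54, adjusted p = 0.075). Ebi3, a subunit of interleukin-27 and interleukin-35, fell by 0.94 ± 0.17 (adjusted p = 0.0014) beside Il10. Tgfb1 was not called (0.14 ± 0.15, adjusted p = 0.58).

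Chemokines were called in both directions, against 8.5% of all tested genes called higher and 8.59% lower. Of 12 CC chemokines tested, 6 fell and 1 rose, with a median of -0.82. The monocyte attractants Ccl2 and Ccl7 read 6049, 2645, 4603, 3504 and 4307 and 1000, 545, 804, 850 and 765 in naive libraries, and 424, 754 and 1201 and 57.7, 123 and 198 at the lowest, median and highest of the tumor libraries. Both fell, with differences of -2.44 ± 0.25 (adjusted p = 1.2e-05) and -2.68 ± 0.25 (adjusted p = 4.8e-06) and no overlap. Ccl12, Ccl17, Ccl6 and Ccl9 fell too. Ccl5 was called higher (1.06 ± 0.35, adjusted p = 0.049), a call lost without naive library 2, 4 or 5 or any of tumor libraries 2 to 6; without naive library 1, 2 were called higher. Of 13 CXC chemokines, 8 rose and 2 fell, with a median of 1.26. Cxcl5, a neutrophil attractant (chr5:90759360-90761624, plus strand), read 3.57, 1.41, 2.57, 8.37 and 3.04 in naive and 99, 141 and 288 in tumor libraries, a difference of 5.14 ± 0.33 (adjusted p = 2e-07). Cxcl3 rose by 2.88 ± 0.62 (adjusted p = 0.0046), a call that limma-voom with quality weights did not make (adjusted p = 0.076), while the related Cxcl1 (0.27 ± 0.24, adjusted p = 0.5) and Cxcl2 (0.05 ± 0.17, adjusted p = 0.86) were not called. Cxcl12, a stromal chemokine, fell by 2.48 ± 0.40 (adjusted p = 0.00055), and was highest in naive library 5, as were the stromal markers. Without tumor libraries 2, 4 and 6, 5 CXC chemokines were called higher.

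Chemoattractant receptors included 4 higher and 3 lower of 11, against 8.5% and 8.59% of all tested genes. Ccr2, the receptor for Ccl2 that brings monocytes into tissue, fell by 1.12 ± 0.13 (adjusted p = 3e-05), from 776, 602, 570, 621 and 513 to 234, 286 and 309. The formyl peptide receptors Fpr2 and Fpr1 rose by 2.05 ± 0.41 (adjusted p = 0.0026) and 1.74 ± 0.42 (adjusted p = 0.01). Of the monocyte list 4 of 14 were higher, Hp, Thbs1, Plac8 and Fn1, and 5 lower, among them Ccr2, F13a1 (-3.20 ± 0.36, adjusted p = 2.5e-05) and Cd44.

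Secreted acute-phase and defence proteins rose, 8 of 11 with 0 lower and a median of 2.50, against 8.5% and 8.59% of all tested genes. Without naive library 1, 1 was called lower. Saa3, an acute-phase serum amyloid, read 89.2, 41.9, 56.6, 52.3 and 75.9 in naive and 446, 564 and 1315 in tumor libraries (3.50 ± 0.30, adjusted p = 2.5e-06), and Lrg1, a glycoprotein linked to angiogenesis, 23.2, 9.88, 24.4, 20.4 and 24.3 and 196, 300 and 552 (3.94 ± 0.30, adjusted p = 9.2e-07). Haptoglobin, Hp, rose by 3.54 ± 0.27 (adjusted p = 9.2e-07) and the iron-binding Lcn2 by 4.51 ± 0.49 (adjusted p = 1.9e-05). Lcn2 was highest in tumor libraries 1 and 2, at 925 and 646, and lowest in 3 and 4, at 164 and 124, and the summed neutrophil markers were likewise highest in 1 and 2 and lowest in 3 and 4. The part of neutrophils in these differences was not tested. In the neutrophil list 6 of 10 tested members were called higher, with S100a9 at 1.88 to 26.8 in naive and 55.6 to 906 in tumor libraries (5.04 ± 0.75, adjusted p = 0.00026) and Ltf at 0.94 to 6.07 in naive and 25.1 to 239 in tumor libraries (4.11 ± 0.51, adjusted p = 5.4e-05). The mast cell list had 3 of 6 called higher, led by Hdc (3.96 ± 0.46, adjusted p = 3.2e-05), and 1 without any of naive library 2 and tumor libraries 1, 2, 5 and 6.

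Most interferon-gamma response genes were called higher. Of 23 tested, 16 were higher, 6 were not called and 1 was lower, Ciita (-0.70 ± 0.17, adjusted p = 0.0086), with a median of 1.01, against 8.5% and 8.59% of all tested genes. For 11 every tumor library was above every naive one, which held for 5.19% of all. The T cell attractant Cxcl9 read 235, 260, 260, 262 and 146 in naive and 428, 749 and 1758 in tumor libraries (1.86 ± 0.30, adjusted p = 0.00054). The guanylate-binding proteins Gbp2 and Gbp5 rose by 1.79 ± 0.27 (adjusted p = 0.00031) and 2.13 ± 0.36 (adjusted p = 0.00076), the GTPases Irgm1 and Igtp by 1.32 ± 0.26 (adjusted p = 0.0021) and 1.17 ± 0.20 (adjusted p = 0.0011), and Ido1, which degrades tryptophan, by 3.49 ± 0.53 (adjusted p = 0.00033). Gbp2b, a guanylate-binding protein gene that is not on the list, went the other way. It read 100 to 228 in naive and 18.2 to 37.6 in tumor libraries and fell by 2.72 ± 0.24 (adjusted p = 2.5e-06). Near-identical Gbp genes can share reads. Tumor library 5 was the highest library for Cxcl9, Gbp2, Gbp5, Irgm1, Igtp and Ido1. Without tumor libraries 2, 4 and 6, 10 members were called higher. Cd274, which encodes the checkpoint ligand PD-L1, read 171, 513, 306, 676 and 379 in naive and 451, 631 and 1290 in tumor libraries (0.98 ± 0.32, adjusted p = 0.0495) and lost its call without naive library 1, 3 or 5, without any of tumor libraries 2 to 6, with a pseudocount of 0.5 and in edgeR's test. Of the 13 checkpoint ligands and costimulators 5 were higher and 2 lower, and 2 or 3 were higher on leaving out any of 8 single libraries.

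Type I interferon genes held few calls. Of 21 tested 3 were called higher and 1 lower, with a median of 0.22, against 8.5% and 8.59% of all genes. Isg15, a ubiquitin-like protein, rose by 1.06 ± 0.26 (adjusted p = 0.0098). The other calls were Oasl2, Ifit1 and Mx1; that on Ifit1 was lost without any of 7 single libraries, naive 2, 4 or 5 or tumor 1, 2, 5 or 6, and that on Mx1 without naive library 2, 3 or 4 or tumor library 5.

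Promoters of 3 interferon-gamma response genes are shown for the core shared by interferon-stimulated response elements, which is TTTC, any 2 bases and TTTC on either strand. The source, window and strand are as above.
Gbp2, chr3:142620564-142620653, plus strand: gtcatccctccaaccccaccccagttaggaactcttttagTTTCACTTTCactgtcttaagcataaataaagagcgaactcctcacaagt
Gbp5, chr3:142496729-142496818, plus strand: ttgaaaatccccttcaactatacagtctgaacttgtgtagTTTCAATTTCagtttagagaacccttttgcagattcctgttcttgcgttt
Irgm1, chr11:48871421-48871484, minus strand: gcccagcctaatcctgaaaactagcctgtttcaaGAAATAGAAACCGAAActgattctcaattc
The core was found in 9 of 16 interferon-gamma members with an entry, in 8 of 18 type I interferon members and in 3.05% of all genes with an entry. The gamma-activated site, TTCNNNGAA with N any base, was found in 7 of the 16 and in 7.14% of all. These promoters come from paralogous families in part and are not independent of each other.

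Genes of antigen presentation on MHC class II were lower. Of 13 members 10 were called lower and 1 higher, against 8.59% and 8.5% of all tested genes, with a median of -0.73. For 6 every tumor library was below every naive one, against 5.47% of all. H2-Aa, the alpha chain of I-A, read 70929, 72360, 82647, 77743 and 57747 in naive and 41894, 43330 and 53404 in tumor libraries, a difference of -0.68 ± 0.17 (adjusted p = 0.013). H2-Eb1, the beta chain of I-E, fell by 0.78 ± 0.17 (adjusted p = 0.005), from 66573, 53963, 69359, 56729 and 49043 to 30060, 34016 and 39648, as did H2-DMa, a peptide loading chain (-0.89 ± 0.14, adjusted p = 0.00043). Ciita, the master regulator of these genes, fell as given above. The invariant chain Cd74 was not called (-0.65 ± 0.26, adjusted p = 0.099), at 323630 to 515560 in naive and 212808 to 324836 in tumor libraries. The member called higher was the protease Ctss (0.58 ± 0.16, adjusted p = 0.019), not called without naive library 5. The count of lower members depended on the libraries and the filter: it was 6 without tumor libraries 2, 4 and 6, 1 without 1, 3 and 5, and 5 without the filter on low reads. Dendritic cell genes fell in part alongside, 8 of 12 and 5 without tumor libraries 1, 3 and 5, such as Cd209a (-4.40 ± 0.40, adjusted p = 3.8e-06), Xcr1 (-2.08 ± 0.30, adjusted p = 0.00023) and Siglech (-1.85 ± 0.25, adjusted p = 0.00011), while their summed level did not pass its test. Of 17 MHC class I genes 2 were higher, Psmb10 and Nlrc5, and 0 lower. That is 11.8% called, against 17.1% of all tested genes called in either direction. Leaving out any of 8 single libraries reduced the number higher to 1.

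The class II promoters are shown for their Y-box, CTGATTGG, the inverted CCAAT element bound by NF-Y.
H2-Aa, chr17:34287827-34287914, minus strand: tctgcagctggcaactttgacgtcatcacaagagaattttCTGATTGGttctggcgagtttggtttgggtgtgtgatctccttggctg
H2-Eb1, chr17:34305765-34305852, plus strand: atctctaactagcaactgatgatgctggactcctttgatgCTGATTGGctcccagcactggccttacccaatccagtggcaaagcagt
It was found in 3 of 9 class II members with an entry, in 5 of 16 interferon-gamma members, in 2 of 24 glycolysis and HIF-1 members, in 2 of 22 immediate-early members and in 4.06% of all genes with an entry, and in none of the resident gut macrophage, type I interferon or antioxidant members.

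Immediate-early genes, which are switched on quickly by many stimuli and by enzymatic dissociation of tissue, were called lower more often than higher in tumor macrophages, 13 of 26 with 5 higher and a median of -0.54. Over all tested genes 8.59% were called lower and 8.5% higher. Fosb read 10942, 9552, 12367, 9181 and 12195 in naive and 3136, 4282 and 6032 in tumor libraries (-1.32 ± 0.19, adjusted p = 0.00019). The transcription factors Egr1 (-1.11 ± 0.17, adjusted p = 0.00041), Atf3 (-1.23 ± 0.21, adjusted p = 0.00082), Jund (-1.47 ± 0.24, adjusted p = 0.00052) and Fos (-0.998 ± 0.22, adjusted p = 0.0056) fell too. The nuclear receptors Nr4a3 and Nr4a2 rose by 0.99 ± 0.22 (adjusted p = 0.0065) and 0.69 ± 0.17 (adjusted p = 0.01). Without tumor libraries 2, 4 and 6, 0 were called higher and with naive libraries 1 and 5 left out 1 was. Of 14 heat shock genes 2 were lower and 0 higher with a median of -0.92; leaving out single libraries gave 1 to 7. For Hspa1b, the inducible HSP70, the values were 4148, 13537, 12356, 6751 and 11002 in naive and 1488, 2619 and 10652 in tumor libraries (-1.35 ± 0.49, adjusted p = 0.076).

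Matrix and clotting genes changed in both directions, against 8.5% of all tested genes called higher and 8.59% lower. Of 14 metalloproteinases and inhibitors 7 were higher and 1 lower. Mmp10 read 1.78, 3.76, 2.57, 3.14 and 3.04 in naive and 31.4, 54.2 and 119 in tumor libraries (4.01 ± 0.32, adjusted p = 1.2e-06), and the membrane-bound Mmp14 301, 276, 238, 454 and 212 and 792, 921 and 1210 (1.75 ± 0.19, adjusted p = 1.5e-05). The elastase Mmp12 rose by 1.35 ± 0.24 (adjusted p = 0.0012), while Mmp9, which neutrophils also make, was not called (0.11 ± 0.59, adjusted p = 0.92). Of 10 plasminogen and coagulation genes 4 rose, among them the protein C receptor Procr (2.42 ± 0.41, adjusted p = 0.00081) and factor X, F10 (2.07 ± 0.36, adjusted p = 0.0011), and F13a1 fell.

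Lipid and lysosome genes were mixed, against 8.5% of all tested genes called higher and 8.59% lower. Of 18 lipid genes 5 were higher and 5 lower: the cholesterol exporter Abca1 rose by 1.26 ± 0.16 (adjusted p = 5.9e-05) and the scavenger receptor Msr1 by 1.10 ± 0.16 (adjusted p = 0.00023), and the fatty acid receptor Cd36 fell by 2.29 ± 0.31 (adjusted p = 0.00011), from 130, 213, 197, 184 and 127 to 21.5, 27.8 and 93.4. The count lower was 3 with TMM scaling and 2 without immunoglobulin, mitochondrial and haemoglobin transcripts in the total. Of 16 cathepsin and lysosome genes 3 rose, with Ctsd at 234, 231, 270, 258 and 219 in naive and 501, 717 and 793 in tumor libraries (1.49 ± 0.13, adjusted p = 2.8e-06), and the cathepsin inhibitor Cst3 fell (-0.89 ± 0.17, adjusted p = 0.0023).

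Further groups were called in part, against 8.5% of all tested genes called higher and 8.59% lower. Of 32 cytosolic ribosomal protein genes limma called 0, with a median of 0.03, and 2 were lower without tumor libraries 1 and 2. Of 20 cell cycle genes 1 was higher, Mcm4 (0.71 ± 0.19, adjusted p = 0.02), and 0 without naive library 4 or tumor library 5. Of 18 NF-kB genes 4 were higher and 3 lower with a median of 0.00; the 3 lower became 1 without naive library 1, 2 or 4 or tumor library 3 or 4. Of 15 unfolded protein response genes 3 were lower. Of 13 complement genes 2 were higher and 3 lower, with C3 at 150 to 311 in naive and 423 to 960 in tumor libraries (1.80 ± 0.21, adjusted p = 3.6e-05); the number higher was 1 without any of tumor libraries 2 to 6. Of 18 Toll-like receptor pathway genes 5 were higher, led by Irak3 (1.21 ± 0.21, adjusted p = 0.001) and Tlr2 (1.21 ± 0.23, adjusted p = 0.0018), and 8 with either other scaling; 1 was lower, Tlr7 (-0.81 ± 0.19, adjusted p = 0.0075). Of 6 Fc receptors 1 was higher and 1 lower, the neonatal Fc receptor Fcgrt (-1.53 ± 0.15, adjusted p = 5.3e-06), with 0 higher on leaving out any 1 of 9 libraries and 3 without tumor library 2.

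**Figure D5:**
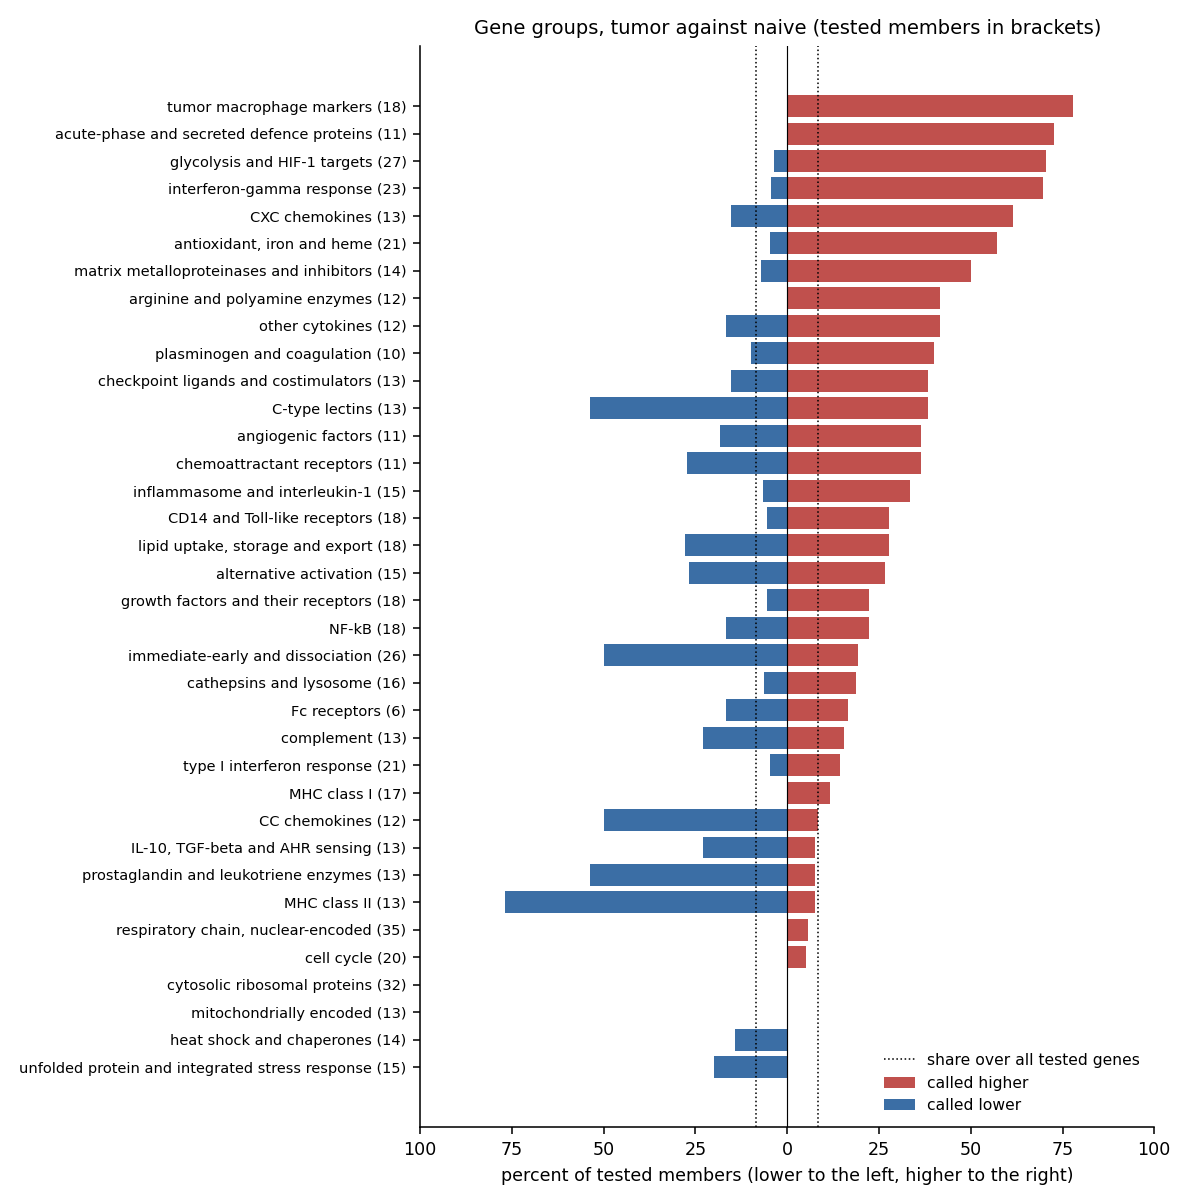
Bars give, for each of 36 gene groups, the percent of tested members called higher (red, to the right) and lower (blue, to the left), with the number tested in brackets; dotted lines mark the shares over all tested genes, 8.5% and 8.59%. Tumor macrophage markers, acute-phase proteins, glycolysis and interferon-gamma genes lead on the right, and MHC class II genes on the left.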

How the data were processed

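RNA of sorted colonic macrophages was measured by CEL-Seq in 5 naive and 6 tumor libraries. The submitters' processing notes name, with no order or settings, HTSeq 0.6.1, DESeq2 1.14.1, TopHat2 2.1.0, FastQC 0.11.5, Bowtie2 2.2.6, Trim Galore and the build GRCm38.p5. Use of strand in counting is not stated in the labels used here. The deposited values are a signal, gene counts that the authors divided by size factors: 100% of 207969 nonzero values were whole reads within 0.1 read. The 27 entries named by a bare number held at most 0.085% of a library. Genes that reached 10 in at least 5 libraries were tested on log2(value + 1) with limma 3.58.1 (R 4.3.3, trend, two-sided, Benjamini-Hochberg). edgeR 4.0.16 and DESeq2 1.42.0 were run on the recovered reads as alternatives, with other pseudocounts, filters and scalings, a replicate block and left-out libraries. Marker sums were compared by a two-sided exact permutation test over 462 assignments, which cannot give a p below 0.00216. On simulated counts for this comparison with 11067 genes, 52.1% of 2-fold and 95.7% of 4-fold changes were recovered, with 2 false calls. Only 96 tested genes were changed 2-fold and 93 4-fold there, far fewer than were called in the data. The changed genes had a naive mean of at least 10, and the libraries were drawn independently, without the pairs seen among tumor libraries. The shares recovered therefore do not give the power or error rate of the real comparison.

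The members and the 735 genes on the lists were chosen with earlier results of these data known. Named genes are first the 12 with the smallest p in each direction. Symbols that mark predicted genes, pseudogenes, ribosomal proteins or receptor segments were passed over. This went by symbol only, so Pla2g2a, annotated as a polymorphic pseudogene, stayed in. Also named are up to 3 called genes per list and direction, the member of each list with the highest level, and 12 genes fixed by name. Further list members and the genes of the closing section were named after their values were seen. Itgam has a repeated name and was left out. Gene positions are from GENCODE M21 on GRCm38. Near-identical genes can share reads, so members of the Gbp, Cd209, Hspa1, H2 and Ear families are uncertain, as are antisense overlaps. Some list members are not reported here. The eosinophil libraries were not used here.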

Additional observations from a re-analysis of the deposited data

Results flagged for a closer look

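A library stood far from the rest of its group in 32 of 338 sets of values tested by Dixon's ratio, 9.47%. Chance flags about 1 in 20 only where values are normally distributed. The ratio was taken on unlogged values, some of them near 0, such as Krt14 in naive and Cd209g in tumor libraries. The share flagged therefore cannot be read as an excess over chance. Naive library 4 was the highest of its group at 2356 ppm for the monocyte marker sum, 345 normalised reads for Cd163, 179 normalised reads for Trem1, 397 normalised reads for Arg1, 118 normalised reads for Slc7a2, 83.2 normalised reads for Il6 and 2.09 normalised reads for Krt14. Tumor library 1 was the highest of its group at 431 ppm for the mast cell marker sum, 73.4 normalised reads for Folr2, 3.5 normalised reads for Cd209f, 507 normalised reads for Ptgs1 and 280 normalised reads for Slc40a1. Naive library 5 was the highest of its group at 3047 ppm for the stroma and endothelium marker sum, 4832 ppm for the erythrocyte marker sum, 255 normalised reads for Cxcl12 and 9.11 normalised reads for Axin2. Tumor library 2 was the highest of its group at 1.38 normalised reads for Cd209g. Tumor library 6 was the highest of its group at 111 normalised reads for Retnla, 633 normalised reads for Casp4, 288 normalised reads for Cxcl5, 53404 normalised reads for H2-Aa, 93.4 normalised reads for Cd36 and 210 normalised reads for Krt5. Naive library 2 was the highest of its group at 230 normalised reads for Hpgd. Naive library 5 was the lowest of its group at 36.4 normalised reads for Trem2, 1008 normalised reads for Ldha and 146 normalised reads for Cxcl9. Tumor library 5 was the highest of its group at 525 normalised reads for Nos2 and 114 normalised reads for Ido1. Naive library 2 was the lowest of its group at 9.88 normalised reads for Lrg1. Naive library 1 was the highest of its group at 32.1 normalised reads for Lcn2. Tumor library 3 was the highest of its group at 50.1 normalised reads for Notum.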

How the results depend on the processing

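Every called gene that was tested in an alternative kept its direction in it. The balance of calls did not: it went from 979 higher and 989 lower to 1465 and 718 with the total without immunoglobulin, mitochondrial and haemoglobin transcripts. The median of 11 of 48 lists changed sign in at least 1 alternative, where the members tested can differ; over all alternatives it ran from -0.81 to 0.23 for C-type lectins, -1.70 to 0.03 for dendritic cell genes, -2.12 to 0.60 for T and NK cell genes and -0.48 to 0.29 for monocyte genes. Genes with a mean of at least 100 gave 1002 calls, 511 higher and 491 lower, of 4363 tested, fewer genes by construction. Without tumor libraries 1, 3 and 5, chosen after the data were seen, 1048 genes were called, 480 higher and 568 lower, and without tumor libraries 2, 4 and 6, 1099, 471 higher and 628 lower, both with fewer samples. On recovered reads, edgeR's quasi-likelihood test called 899 higher and 1045 lower, and DESeq2 1052 and 1205. Leaving out 1 library at a time gave 723 to 1002 higher and 786 to 983 lower. The tumor to naive ratio of summed markers ranged over these leave-outs from 1.09 to 1.17 for macrophage identity markers, 0.784 to 0.87 for monocyte markers, 4.97 to 7.06 for neutrophil markers, 0.477 to 0.63 for eosinophil markers, 1.02 to 1.86 for epithelium markers, 6.34 to 10.8 for mast cell markers, 0.139 to 0.407 for erythrocyte markers; smaller groups raise the smallest p the permutation test can give. With the replicate number as a block, 1230 genes were called, 592 higher and 638 lower. Deviations of libraries with the same number correlated at -0.31 to 0.056 over the 5 numbers, and those with different numbers at -0.28 to 0.25. So few correlations cannot decide whether a shared number means a shared origin, and the labels do not say. Without tumor libraries 2, 4 and 6 fewer members of several lists were called higher, with 2 of the growth factors, 3 of the other cytokines, 2 of the coagulation genes, 2 of the monocyte genes and 0 of the checkpoint ligands. Naive library 5, with 1477255 reads, limits what can be seen in genes with few reads.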

Other observations

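Some epithelial and Wnt pathway genes were called higher; those given were picked after their values were seen and stand for no list. The basal keratins Krt14 and Krt5, which belong to stratified epithelium, read 0, 0, 0, 2.09 and 0 and 1.78, 0.47, 0, 1.57 and 3.04 in naive libraries 1 to 5, and 31.5, 47.7 and 60.6 and 49, 79 and 210 at the lowest, median and highest of the tumor libraries. Their log2 differences were 5.23 ± 0.40 (adjusted p = 9.2e-07) and 5.40 ± 0.41 (adjusted p = 9.2e-07) by limma. The Wnt antagonists Wif1 and Notum read 0 to 4.23 in naive and 43.9 to 153 in tumor libraries and 0 to 7.72 in naive and 20 to 50.1 in tumor libraries, and rose by 5.17 ± 0.47 (adjusted p = 4.3e-06) and 3.27 ± 0.51 (adjusted p = 0.00041). Axin2, a feedback target of Wnt signalling, read 0 to 9.11 in naive and 9.67 to 45.8 in tumor libraries and rose by 3.12 ± 0.63 (adjusted p = 0.0029). The intestinal stem cell receptor Lgr5 read 1.29 to 8.92 in naive and 10.4 to 57.3 in tumor libraries and rose by 2.37 ± 0.47 (adjusted p = 0.0025), a call not made without tumor libraries 1, 3 and 5 (adjusted p = 0.071). Of the general epithelial markers 4 of 15 were called higher, Krt18, Cdh1, Reg4 and Krt19, and 3 lower, Car4, Slc26a3 and Car1, which mark differentiated colonocytes. Over all tested genes 8.5% were called higher and 8.59% lower. Without naive library 1, 8 of these markers were higher, and without naive library 3, 5 were lower. The summed epithelial level was 592 to 3956 ppm in naive and 1381 to 2372 ppm in tumor libraries (exact permutation test, adjusted p = 0.68). The part of epithelial RNA in these differences was not tested.

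Pla2g2a, named for a secreted phospholipase, is annotated as a polymorphic pseudogene, so its RNA need not stand for a working enzyme. It read 46.4, 44.2, 42.5, 27.7 and 48.6 in naive and 333, 712 and 916 in tumor libraries, a difference of 3.93 ± 0.24 (adjusted p = 1.2e-07). Cd38, which consumes NAD, rose by 1.84 ± 0.14 (adjusted p = 9.2e-07), and Tgm2, a crosslinking enzyme, by 2.14 ± 0.16 (adjusted p = 9.2e-07).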
